A study of Macaca mulatta with 10 samples.

Results

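The insulin receptor and the proteins that carry its first signals are described here through 10 genes, namely INSR, IRS1, IRS2, GRB10, GRB14, PIK3R1, AKT1, AKT2, FOXO1 and PTPN1. They were chosen by name and found through a table that pairs Ensembl macaque gene IDs with symbols. All 10 were present, each under a single ID, among the 28595 genes of the files. Skeletal muscle and fat of 5 male rhesus macaques were profiled by strand-specific poly(A) RNA-Seq, with 10 libraries in all. Animal rhesus_950807 formed the hyperinsulinemic group and was described in the study as obese, insulin resistant and heterozygous for a premature stop codon in PRKD2, the gene of protein kinase D2. Animals rhesus_920401, rhesus_940129, rhesus_940313 and rhesus_950509 formed the control group, and control values are given in this order throughout. With 1 hyperinsulinemic animal, its genotype, body weight, insulin level and every other trait of that animal cannot be told apart, and only the 4 controls show how much animals vary. The labels give neither the ages nor the muscle or fat depot.

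Insulin binds a receptor tyrosine kinase, which phosphorylates docking proteins of the insulin receptor substrate (IRS) family. These recruit phosphoinositide 3-kinase (PI3K), whose lipid product brings AKT kinases to the membrane, and AKT then phosphorylates proteins that set glucose uptake, lipid synthesis and transcription, among them the transcription factor FOXO1, which is thereby kept out of the nucleus. In muscle and fat the pathway drives glucose uptake through the transporter GLUT4. The adaptors GRB10 and GRB14 bind the receptor and inhibit it, and the phosphatase PTPN1 (PTP1B) removes its phosphate groups. RNA levels do not measure phosphorylation, through which most of this pathway is regulated.

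Positions are given as in the files, counted from 1, in the macaque build of the files, whose name is not given in the sources used here. INSR (ENSMMUG00000028907) spanned 6987691 to 7037130 of chromosome 19 (minus strand), with a transcript model of 2358 bases. This is shorter than the coding sequence of human INSR, so the model covers the receptor in part. IRS1 (ENSMMUG00000019467) lay on chromosome 12 from 90682201 to 90686547 and IRS2 (ENSMMUG00000021790) on chromosome 17 from 89893224 to 89896862, both on the minus strand as single exons of 4347 and 3639 bases. GRB10 (ENSMMUG00000019992) spanned 75579277 to 75772725 of chromosome 3 (plus strand), with 5112 bases of transcript. GRB14 (ENSMMUG00000015292) spanned 28132885 to 28259318 of chromosome 12 (minus strand), with 1431 bases. PIK3R1 (ENSMMUG00000011532) spanned 66066541 to 66151931 of chromosome 6 (plus strand), with 6522 bases. AKT1 (ENSMMUG00000001044) lay on chromosome 7 from 168148767 to 168172597 and AKT2 (ENSMMUG00000003621) on chromosome 19 from 46590258 to 46619798, both on the minus strand, with 3380 and 1533 bases. FOXO1 (ENSMMUG00000030780) lay on chromosome 17 from 19613634 to 19725779 and PTPN1 (ENSMMUG00000007878) on chromosome 10 from 13881271 to 13955670, both on the minus strand, with 5679 and 3267 bases. An unnamed gene, ENSMMUG00000025025, overlapped PTPN1 on the same strand, so the division of reads between them is uncertain. Reads shared by the similar AKT genes were not resolved either, since the authors kept uniquely mapped reads only.

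Levels are in RPKM, a read count scaled both to transcript length and to how many reads a library had mapped. The hyperinsulinemic animal had 41780234 mapped reads in fat and 33961486 in muscle, against 30669915 to 39379286 in control fat and 35682861 to 43268985 in control muscle. Marker genes fitted the tissue labels, with ADIPOQ, the adipocyte hormone, at 726 RPKM in hyperinsulinemic fat and 631 to 1491 RPKM in control fat. The ID that the name table calls FABP4 went against its use as an adipocyte marker, at 0.254 to 3.44 RPKM in fat and 27.7 to 68.7 RPKM in muscle over all animals. The symbol may be wrong for this annotation, and the symbols of the 10 genes came from the same table and were not checked otherwise. The fat libraries of controls rhesus_920401 and rhesus_940313 held muscle transcripts. Skeletal actin ACTA1 had 101 RPKM in fat of rhesus_920401 and 80.9 RPKM in fat of rhesus_940313, against at most 1.72 RPKM in all other fat libraries. Scaled to ACTA1, this muscle RNA carried at most 0.713% of the level of any of the 10 genes in those libraries.

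**Figure D1:**
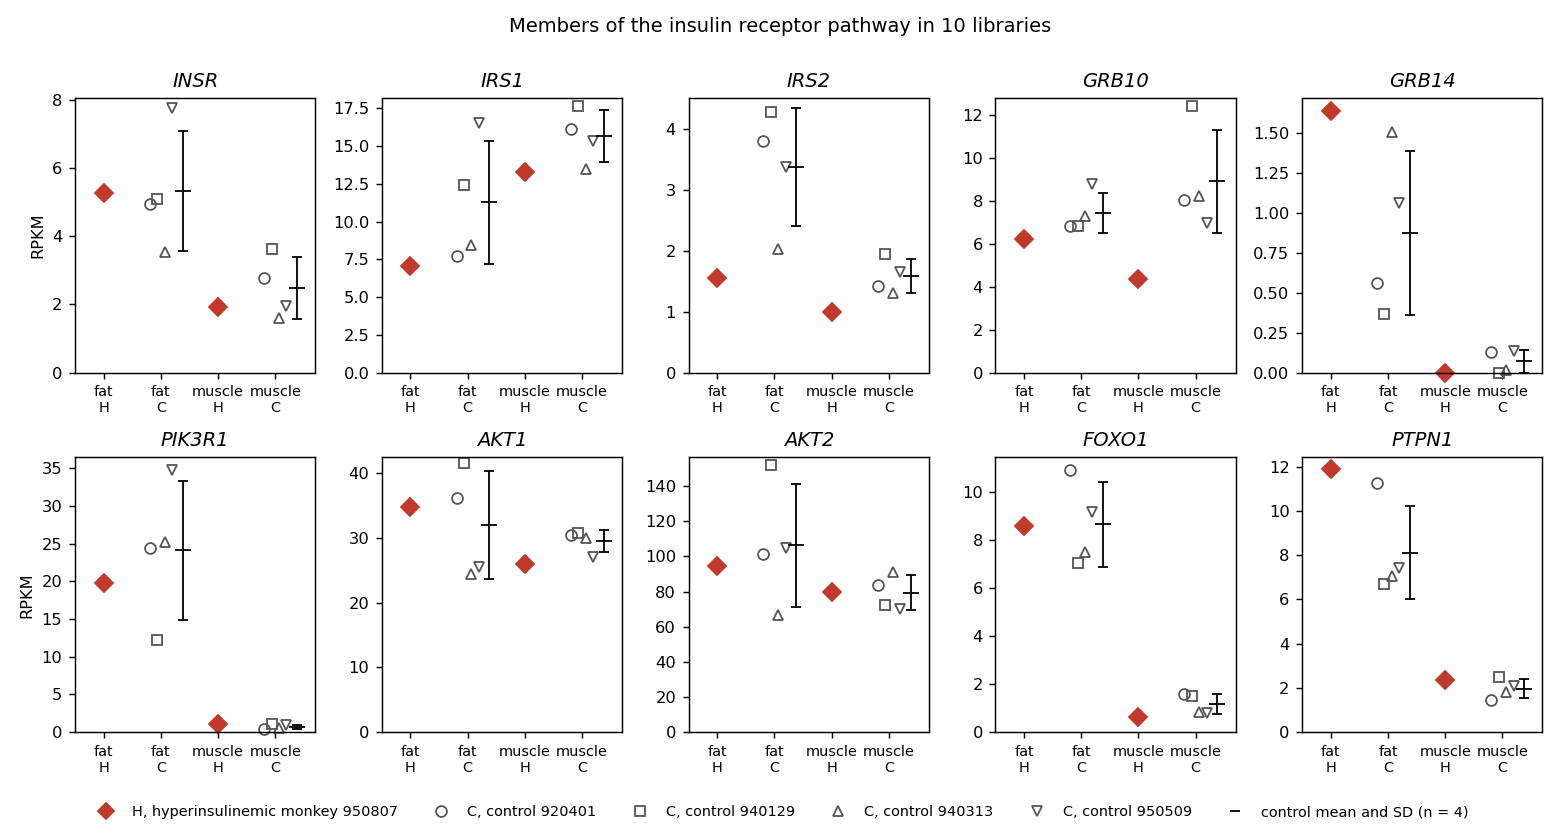
RPKM (vertical axes, each from 0) of the 10 genes in fat and muscle, with the hyperinsulinemic monkey (H, red diamond) left of the 4 controls (C, open symbols by animal) and the control mean and SD beside them. IRS1, IRS2 and GRB10 of the hyperinsulinemic monkey lie under all 4 controls in both tissues, while INSR and PIK3R1 of fat lie inside the control range.

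Among controls the most abundant transcript per length was AKT2, the AKT kinase most tied to glucose uptake, with 106 ± 35.2 RPKM in fat and 79.5 ± 9.96 RPKM in muscle (SD, n = 4 each). AKT1, its ubiquitous relative, came next at 32.0 ± 8.31 RPKM in fat and 29.6 ± 1.72 RPKM in muscle. In muscle the order went on with IRS1 at 15.7 ± 1.74, GRB10 at 8.90 ± 2.39, INSR at 2.48 ± 0.900, PTPN1 at 1.96 ± 0.423, IRS2 at 1.58 ± 0.281, FOXO1 at 1.19 ± 0.419, PIK3R1 at 0.727 ± 0.284 and GRB14 at 0.0693 ± 0.0711 RPKM. The first 4 muscle levels did not overlap with that of the next gene, whereas INSR, PTPN1, IRS2, FOXO1 and PIK3R1 each overlapped with their neighbour. In fat AKT1 was followed by PIK3R1 at 24.2 ± 9.24, IRS1 at 11.3 ± 4.07, FOXO1 at 8.68 ± 1.77, PTPN1 at 8.12 ± 2.11, GRB10 at 7.43 ± 0.931, INSR at 5.33 ± 1.76, IRS2 at 3.37 ± 0.971 and GRB14 at 0.873 ± 0.514 RPKM. Here only AKT2 and GRB14 stood clear of their neighbours, and all other neighbours overlapped. Since the transcript models are of unequal completeness, the order between genes depends on them.

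Controls varied more in fat than in muscle for AKT1, AKT2, IRS1 and IRS2. AKT1 in control muscle spanned 1.14-fold between animals, and in control fat 1.70-fold. IRS1 spanned 2.15-fold in control fat and 1.31-fold in control muscle. GRB10 went the other way, with 1.29-fold in fat and 1.78-fold in muscle. These spans were not tested. Control fat of rhesus_940129 had the highest AKT1 and AKT2 and the lowest PIK3R1, FOXO1 and PTPN1. In control muscle rhesus_940129 was instead the highest for INSR, IRS1, IRS2, GRB10, PIK3R1, AKT1 and PTPN1, and rhesus_940313 was the lowest for INSR, IRS1 and IRS2.

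The first question was whether the hyperinsulinemic monkey differed from controls in these transcripts. In muscle, 5 of the 8 members tested, IRS1, IRS2, GRB10, AKT1 and FOXO1, had RPKM values under all 4 controls, against 15.2% of all 8306 genes tested, and none lay above all 4, against 34.9% of all genes. In fat, IRS1, IRS2 and GRB10 lay under all 4 controls, 3 of 10, against 7.8% of 11981 genes, while GRB14 and PTPN1 lay above all 4, against 27.9%. The docking proteins IRS1 and IRS2 and the receptor inhibitor GRB10 were thus under every control in both tissues, 3 of the 8 members tested in both, against 1.64% of the 7938 genes tested in both. After TMM scaling, which adjusts each library so that the bulk of genes match, AKT2 joined them in muscle by a narrow margin, making 6 of 8 against 27.2% of all genes, and in fat the same 3 of 10 remained against 16.9%, with none above all controls. A gene was tested where its mean was at least 1 RPKM in the 5 libraries of a tissue. GRB14 and PIK3R1 fell short of this in muscle. PIK3R1, at 1.04 RPKM against at most 1.03 RPKM in controls, lay above all 4 there but was not counted. FOXO1 passed in muscle only through its controls, at 0.813 to 1.60 RPKM against 0.627 RPKM in the hyperinsulinemic monkey. IRS2 in muscle did so too, at 1.31 to 1.94 RPKM in controls against 0.995 RPKM in the hyperinsulinemic monkey. It is also among the 3 members under every control in both tissues. GRB14 passed in fat only through the hyperinsulinemic monkey. These counts therefore depend on the filter.

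None of these differences passed the test across genes. With edgeR's quasi-likelihood test and Benjamini-Hochberg adjustment, 0 of 8306 genes in muscle (0.0%) and 0 of 11981 genes in fat (0.0%) had an adjusted p under 0.05. At an unadjusted p under 0.05 there were 754 genes in muscle and 286 in fat. DESeq2 called 88 genes in muscle and 11 in fat, and limma on log2(RPKM + 1) called 1 in muscle and 0 in fat, with none of the 10 members among the calls of either tool. The lone animal is assumed to vary as the controls do, and an exact permutation test of 1 animal against 4 cannot go below p = 0.2. On simulated data the edgeR test recovered 55% of 4-fold and 5% of 2-fold changes in muscle. In fat it recovered 16% and 0%, so a lack of calls does not show a lack of difference. In both tissues it also called some genes that had been left unchanged.

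**Figure D2:**
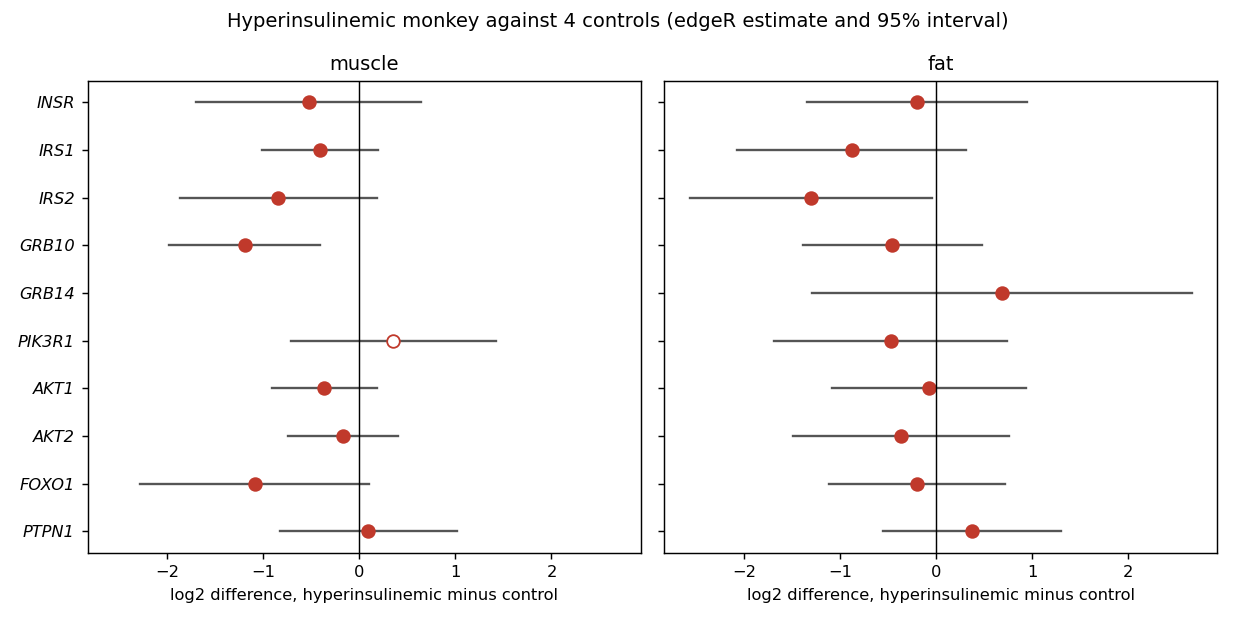
Estimated log2 difference (horizontal axis, hyperinsulinemic minus control, edgeR with TMM scaling) with its 95% interval for each member in muscle and fat; the open circle, PIK3R1 in muscle, is from the fit without a filter on low levels. The intervals of GRB10 in muscle (-1.98 to -0.40) and IRS2 in fat (-2.57 to -0.05) exclude 0 before adjustment, and GRB14 in muscle, with 0 reads in the hyperinsulinemic monkey, is not drawn.

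The receptor INSR showed no clear difference. In fat it had 5.28 RPKM (520 reads) in the hyperinsulinemic monkey, against 4.95, 5.10, 3.52 and 7.75 RPKM in the 4 controls. In muscle it had 1.94 RPKM in the hyperinsulinemic monkey, against 2.77, 3.61, 1.60 and 1.95 RPKM in the same controls. Both values of the hyperinsulinemic monkey lay within the control range. The edgeR estimate was a log2 difference of -0.20 ± 0.514 in fat and -0.53 ± 0.523 in muscle (SE), with adjusted p = 0.9999 and 0.800, and the fat estimate changed sign with limma on log2(RPKM + 1), at 0.028.

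Of the docking proteins, IRS2, which links the receptor to PI3K, had the lowest level of all 5 animals in both tissues. In fat it had 1.55 RPKM (236 reads) in the hyperinsulinemic monkey, against 3.80, 4.28, 2.03 and 3.38 RPKM in the 4 controls. In muscle it had 0.995 RPKM (123 reads) in the hyperinsulinemic monkey, against 1.42, 1.94, 1.31 and 1.65 RPKM. The groups did not overlap in either tissue. The log2 difference was -1.31 ± 0.565 in fat (95% interval -2.57 to -0.05), which is 40.4% of the control level, with edgeR adjusted p = 0.9999. In muscle it was -0.84 ± 0.456, or 55.8% of the control level, with edgeR adjusted p = 0.621. Over all alternatives the estimate ran from -1.52 to -0.75 in fat and from -0.96 to -0.36 in muscle. Without the fat libraries of rhesus_920401 and rhesus_940313 it was -1.52 ± 0.966 in fat.

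IRS1, the other main docking protein of muscle and fat, was also lowest in the hyperinsulinemic monkey. In fat it had 7.03 RPKM in the hyperinsulinemic monkey, against 7.70, 12.4, 8.46 and 16.5 RPKM in the 4 controls. In muscle it had 13.3 RPKM in the hyperinsulinemic monkey, against 16.2, 17.7, 13.5 and 15.4 RPKM. In each tissue the lowest control, rhesus_920401 in fat and rhesus_940313 in muscle, was close to the hyperinsulinemic monkey. edgeR estimated a log2 difference of -0.88 ± 0.536 in fat and -0.41 ± 0.269 in muscle, with adjusted p = 0.9999 and 0.676. In fat the estimate moved to -1.24 ± 0.881 without the fat libraries of rhesus_920401 and rhesus_940313.

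Among the inhibitors, GRB10 gave the smallest p of the 10 genes. In muscle it had 4.37 RPKM (758 reads) in the hyperinsulinemic monkey, against 8.02, 12.4, 8.21 and 6.96 RPKM (1294 to 2260 reads) in the 4 controls. The value of the hyperinsulinemic monkey was 49.1% of the control mean and well under the lowest control. The log2 difference was -1.19 ± 0.352 (95% interval -1.98 to -0.40), or 43.7% of the control level after TMM scaling, with edgeR adjusted p = 0.482. DESeq2 gave an adjusted p of 0.0766, the lowest of all alternatives, which ran up to 0.743 with estimates from -1.27 to -0.85. In fat GRB10 had 6.21 RPKM in the hyperinsulinemic monkey, against 6.83, 6.83, 7.27 and 8.79 RPKM in controls. That log2 difference was -0.46 ± 0.419, with edgeR adjusted p = 0.9999.

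GRB14 was a low-level transcript. In fat it had 1.64 RPKM (98 reads) in the hyperinsulinemic monkey, against 0.559, 0.365, 1.51 and 1.06 RPKM (26, 16, 83 and 60 reads) in the 4 controls. The controls themselves spanned 4.13-fold, and after TMM scaling over all 10 libraries 1 control lay above the hyperinsulinemic monkey. edgeR estimated a log2 difference of 0.69 ± 0.888, with adjusted p = 0.9999. In muscle GRB14 had 0 reads in the hyperinsulinemic monkey, for which a count of 0 allows up to 3 reads, and 7, 0, 1 and 7 reads in controls, so no difference was detectable at this depth.

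PTPN1 in fat had 11.9 RPKM in the hyperinsulinemic monkey, against 11.3, 6.70, 7.07 and 7.44 RPKM in the 4 controls. Control rhesus_920401 nearly reached the hyperinsulinemic monkey. After TMM scaling over all 10 libraries it was above the hyperinsulinemic monkey by little, at a scaled level of 36.9 against 36.0. The log2 difference was 0.37 ± 0.417, with edgeR adjusted p = 0.9999. In muscle PTPN1 had 2.36 RPKM in the hyperinsulinemic monkey, against 1.47, 2.48, 1.82 and 2.07 RPKM, within the control range.

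PIK3R1 encodes the p85α regulatory subunit of PI3K. In fat it had 19.8 RPKM (5400 reads) in the hyperinsulinemic monkey, against 24.4, 12.2, 25.2 and 34.8 RPKM in the 4 controls, and the log2 difference was -0.47 ± 0.546 with edgeR adjusted p = 0.9999. In muscle it had 1.04 RPKM (230 reads) in the hyperinsulinemic monkey, against 0.445, 1.03, 0.528 and 0.902 RPKM. The fat value lay within the control range. In RPKM the muscle value lay just above the highest control, rhesus_940129, but it was under 2 controls after TMM scaling over all 10 libraries.

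The AKT kinases differed little. AKT1 in muscle had 25.9 RPKM in the hyperinsulinemic monkey, against 30.5, 30.8, 30.0 and 27.0 RPKM in the 4 controls, and AKT1 in fat had 34.7 RPKM, against 36.2, 41.6, 24.5 and 25.6 RPKM. Only the muscle value was under all controls. The AKT1 log2 difference was -0.36 ± 0.243 in muscle and -0.08 ± 0.452 in fat, with edgeR adjusted p = 0.683 and 0.9999. AKT2 had 94.7 RPKM in fat of the hyperinsulinemic monkey, against 102, 152, 66.6 and 105 RPKM in controls, and 79.6 RPKM in muscle, against 83.9, 72.6, 91.4 and 70.1 RPKM. Both AKT2 values were within the control range, and the log2 difference was -0.36 ± 0.505 in fat and -0.17 ± 0.255 in muscle, with intervals of -1.49 to 0.76 and -0.74 to 0.40.

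FOXO1, which AKT inactivates, was lowest in the hyperinsulinemic monkey in muscle and not in fat. In muscle it had 0.627 RPKM (121 reads) in the hyperinsulinemic monkey, against 1.60, 1.495, 0.838 and 0.813 RPKM (168 to 351 reads) in the 4 controls. The controls fell into a higher pair, rhesus_920401 and rhesus_940129, and a lower pair near the hyperinsulinemic monkey. edgeR estimated a log2 difference of -1.09 ± 0.530 (95% interval -2.28 to 0.10), with adjusted p = 0.594. In fat FOXO1 had 8.58 RPKM in the hyperinsulinemic monkey, against 10.95, 7.04, 7.53 and 9.19 RPKM, in the middle of the controls.

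Whether the hyperinsulinemic animal differed from controls by another amount in fat than in muscle was tested as an interaction in edgeR. Of 7938 genes, 0 (0.0%) passed, 434 had an unadjusted p under 0.05, and DESeq2 called 16 and limma on log2(RPKM + 1) 0, none of them a member. On simulated data this edgeR test recovered 0% of 4-fold changes, so its lack of calls cannot show that the tissues differed alike. The largest member estimates were 0.92 ± 0.606 for FOXO1 and 0.77 ± 0.493 for GRB10, with adjusted p = 0.930 for both, so the contrast between their muscle and fat values was not shown to differ.

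Summed levels of markers of several other cell types were outside the control range in the hyperinsulinemic monkey, although no marker was called. In fat the summed level of 6 macrophage markers was 377 RPKM in the hyperinsulinemic monkey, against 110 to 311 RPKM in controls, and that of 5 T and NK cell markers was 26.1 RPKM, against 6.08 to 16.4 RPKM. Sums over 7 fibroblast and 7 endothelial markers were also above every control in fat, at 2906 and 240 RPKM in the hyperinsulinemic monkey, against 1466 to 2651 and 140 to 211 RPKM in controls, where 27.9% of all genes tested in fat lay above every control. The fitted median log2 difference in fat was 0.78 for the macrophage, 1.21 for the T and NK cell, 0.46 for the fibroblast and -0.03 for the endothelial markers. Estimates in fat were lower in the hyperinsulinemic monkey for 3 of the 7 fibroblast and 4 of the 7 endothelial markers, so these lists did not move as a whole. The 7 adipocyte markers summed to 4988 RPKM in the hyperinsulinemic monkey, against 2645 to 6419 RPKM. In muscle the estimates of all 8 genes listed for smooth muscle and pericytes were lower in the hyperinsulinemic monkey, with a median log2 difference of -1.02. Their sum of 3795 RPKM lay within the controls' 2447 to 5171 RPKM. One of them, DES, is also on the list of muscle fiber markers, so in muscle this sum does not stand for smooth muscle and pericytes alone. The 4 macrophage markers tested in muscle also had lower estimates, with a median of -1.06. The sum of all 6 was 9.05 RPKM in muscle of the hyperinsulinemic monkey, within the controls' 8.51 to 26.1 RPKM. T and NK cell markers summed to 0.326 RPKM in muscle of the hyperinsulinemic monkey, against 0.483 to 3.06 RPKM in controls. None of these markers was at 0 in every library, and the share of all genes with lower estimates was not worked out. In bulk tissue, fewer cells of a type and less RNA per cell cannot be told apart, and the part of these markers in the values of IRS1, IRS2, GRB10 and PTPN1 was not tested.

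The second question was how the pathway is set up in normal fat and normal muscle. Among the 4 controls, edgeR with TMM scaling called 6237 of 12253 genes between tissues (50.9%) at an adjusted p under 0.05 and an absolute log2 difference of at least 1, with 29.3% of genes higher and 21.6% lower in fat. Of the 9 members tested, PIK3R1 and FOXO1 were higher in fat, and IRS1, GRB10, AKT1 and AKT2 were lower in fat than in muscle. These 6 of 9 are near the background share. The scaling decides much of this result. In control fat 5.97 to 8.09% of reads in genes came from the leading 10 genes, against 30.3 to 32.9% in control muscle, and the median log2 difference of all genes, fat minus muscle, was 0.30 with TMM scaling and 1.73 with scaling to mapped totals. With mapped totals 7897 genes were higher and 850 lower in fat, or 90.3% higher, compared with 3596 and 2641, or 57.7% higher, under TMM. RPKM is scaled to mapped totals too. Members are therefore given under both scalings and relative to the median of all genes, which hardly moves between them.

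**Figure D3:**
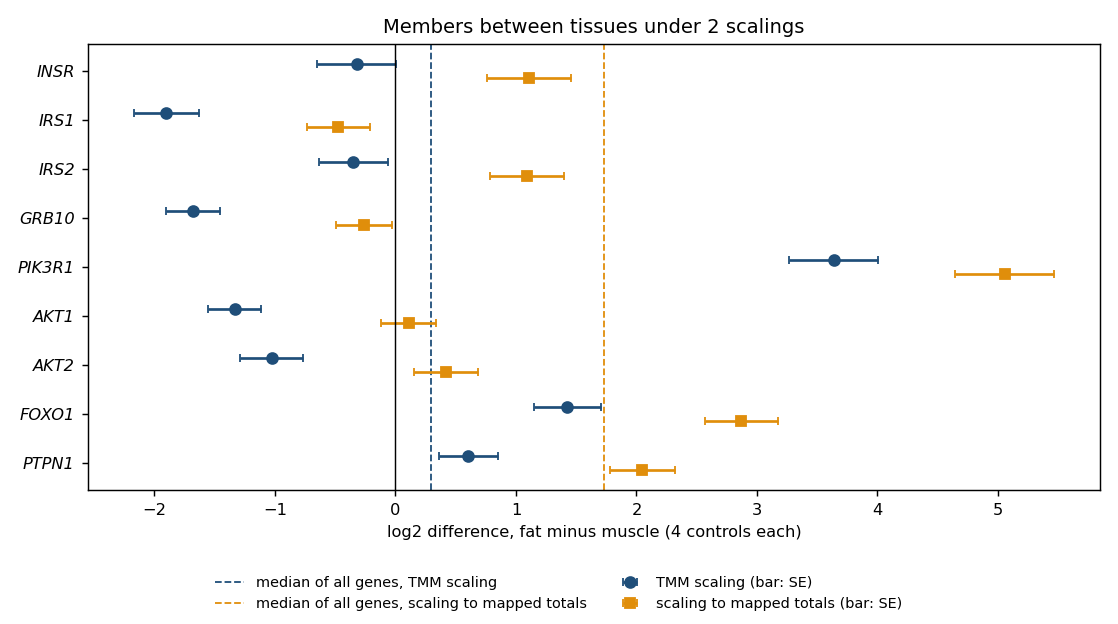
Log2 difference between tissues in the 4 controls (horizontal axis, fat minus muscle) of the 9 members tested, under TMM scaling (blue circles) and scaling to mapped totals (orange squares), with SE bars and the median of all genes as a dashed line for each. PIK3R1 and FOXO1 lie right of 0 and of the median under both scalings, while INSR, IRS2, AKT1 and AKT2 cross 0 between them.

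PIK3R1 showed the widest gap between tissues of the 9 members tested. It had 24.4, 12.2, 25.2 and 34.8 RPKM in fat of the 4 controls, against 0.445, 1.03, 0.528 and 0.902 RPKM in muscle of the same animals. Fat was 11.9-fold to 55.0-fold higher within an animal. The log2 difference was 3.64 ± 0.372 with TMM (edgeR adjusted p = 6.87e-06) and 5.06 ± 0.413 with mapped totals, and 3.34 and 3.32 relative to the median gene. The hyperinsulinemic monkey had the same direction, with 19.1-fold more in fat.

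FOXO1 was the other member called higher in fat under both scalings. It had 10.95, 7.04, 7.53 and 9.19 RPKM in control fat, against 1.60, 1.495, 0.838 and 0.813 RPKM in muscle, and the ranges lay far apart. edgeR estimated a log2 difference of 1.43 ± 0.275 with TMM (edgeR adjusted p = 8.28e-04) and 2.87 ± 0.301 with mapped totals, or 1.13 and 1.14 relative to the median. PTPN1, at 11.3, 6.70, 7.07 and 7.44 RPKM in control fat and 1.47, 2.48, 1.82 and 2.07 RPKM in control muscle, was 0.61 ± 0.246 with TMM, short of the required size, and 2.05 ± 0.272 with mapped totals, where it was called (edgeR adjusted p = 3.75e-05). PTPN1 was 0.31 and 0.32 above the median gene.

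GRB14 was close to absent from muscle and failed the filter. The 4 controls had 185 reads in fat and 15 in muscle, a 13.5-fold higher rate per mapped read in fat, with a 95% interval of 7.95 to 24.5 that covers counting error only. In the hyperinsulinemic monkey there were 98 reads in fat and 0 in muscle. With 3 reads set for muscle, the rate was 26.6-fold higher in fat, a value that leaves out the counting error of the 98 reads. In the edgeR fit without a filter the log2 difference in controls was 2.22, with adjusted p = 0.103.

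IRS1 and GRB10 lay on the muscle side. IRS1 had 7.70, 12.4, 8.46 and 16.5 RPKM in control fat and 16.2, 17.7, 13.5 and 15.4 RPKM in control muscle, with rhesus_950509 alone higher in fat. Its log2 difference was -1.90 ± 0.272 with TMM (edgeR adjusted p = 9.48e-05) and -0.48 ± 0.262 with mapped totals, where the call was lost, and -2.20 and -2.21 relative to the median. GRB10 had 6.83, 6.83, 7.27 and 8.79 RPKM in control fat and 8.02, 12.4, 8.21 and 6.96 RPKM in control muscle. Its log2 difference was -1.68 ± 0.225 with TMM (edgeR adjusted p = 5.65e-05) and -0.26 ± 0.230 with mapped totals, where it was not called, or -1.98 and -1.99 relative to the median. In the hyperinsulinemic monkey GRB10 had 1.42-fold more RPKM in fat than in muscle, and control rhesus_950509 had 1.26-fold more, but after TMM scaling GRB10 was lower in fat in all 5 animals.

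For AKT1, AKT2, INSR and IRS2 the direction turned with the scaling. AKT1 was -1.33 ± 0.220 with TMM and 0.11 ± 0.228 with mapped totals, and AKT2 -1.03 ± 0.261 and 0.42 ± 0.264. INSR was -0.32 ± 0.332 and 1.10 ± 0.348, and IRS2 -0.35 ± 0.284 and 1.09 ± 0.305. With mapped totals INSR and IRS2 were called higher in fat (edgeR adjusted p = 0.0119 and 0.0060), while AKT1 and AKT2 lost their calls. Relative to the median gene the differences were -1.63 and -1.62 for AKT1, -1.33 and -1.31 for AKT2, -0.62 and -0.63 for INSR, and -0.65 and -0.64 for IRS2, all under the median. The AKT2 call also ended without control rhesus_920401 (-0.92), without rhesus_940313 (-0.80), at a mean of at least 5 RPKM (-0.85), and without both fat libraries that held muscle RNA (-0.77 ± 0.322), all short of the required size. With the animal as a replicate block, which pairs the tissues of each animal, 6148 genes were called and the same 6 members kept their calls.

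Ratios of members within a library cannot be moved by any scaling. Of 8 ratios, which were chosen after the values had been seen and are given as descriptions, 5 did not overlap between fat and muscle of the controls. The share over other pairs of genes was not worked out, and 50.9% of all genes were called between these tissues. This count is therefore not a result about the members. The ratio of PIK3R1 to IRS1 averaged 2.10 in control fat and 0.0438 in control muscle. IRS2 to IRS1 averaged 0.302 in fat and 0.1001 in muscle, so IRS1 outweighed IRS2 in both tissues and more so in muscle. FOXO1 to AKT1 averaged 0.274 in fat and 0.0383 in muscle. INSR to AKT1 was 0.164 in fat and 0.0799 in muscle, and GRB10 to INSR went the other way, at 1.44 in fat and 3.68 in muscle. These are geometric means over 4 animals. AKT2 to AKT1, PTPN1 to INSR and IRS1 to AKT1 overlapped between the tissues.

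**Figure D4:**
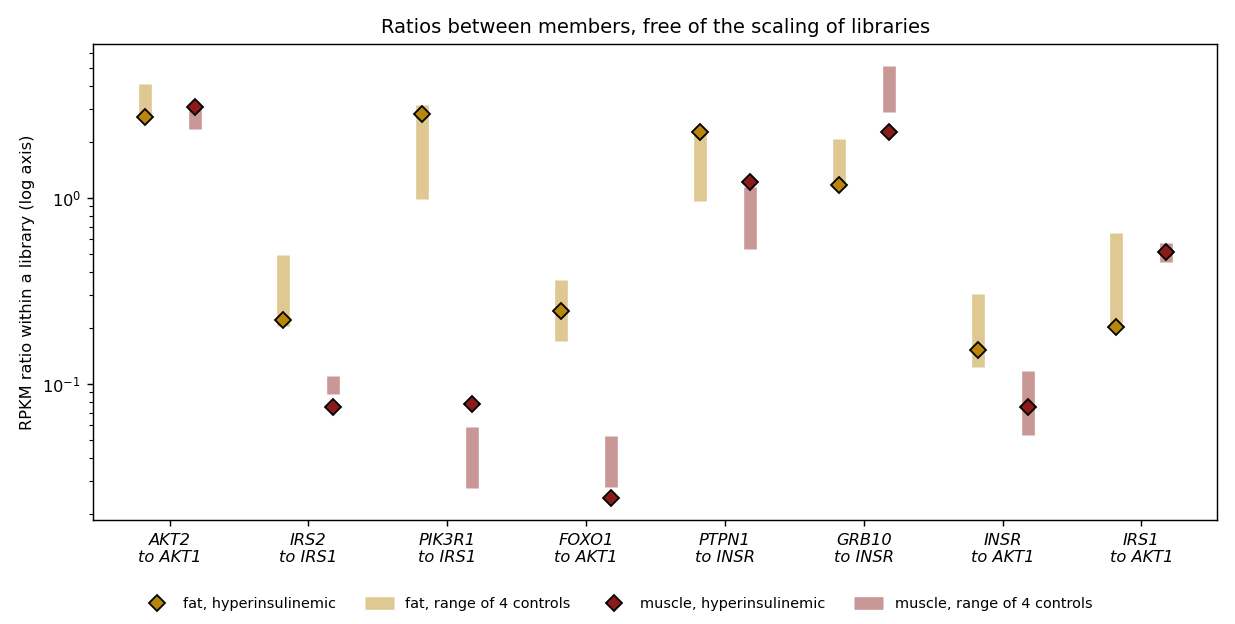
RPKM ratios between members within a library (vertical log axis, 8 ratios along the horizontal axis), with bars for the range of 4 controls and diamonds for the hyperinsulinemic monkey, fat left of muscle. In muscle the diamonds for IRS2 to IRS1, FOXO1 to AKT1 and GRB10 to INSR lie under the control bars, and in fat the ratio of IRS1 to AKT1 does.

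The hyperinsulinemic monkey left the control range in several of these ratios. In muscle its ratio of GRB10 to INSR was 2.26, against 2.90 to 5.14 in controls, its ratio of IRS2 to IRS1 was 0.0749, against 0.0877 to 0.110, and its ratio of FOXO1 to AKT1 was 0.0242, against 0.0280 to 0.0525. Above the muscle controls were PIK3R1 to IRS1, at 0.0781 against 0.0275 to 0.0587, PTPN1 to INSR, at 1.22 against 0.533 to 1.14, and, by little, AKT2 to AKT1, at 3.07 against 2.35 to 3.05. In fat only IRS1 to AKT1 left the range, at 0.203 against 0.213 to 0.647. With 1 animal these are descriptions, the ratios share members, and the share over other pairs of genes was not worked out.

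The makeup of the IRS and PI3K families also differed between tissues. IRS1 held 81.9% of the sum of IRS1 and IRS2 in fat of the hyperinsulinemic monkey and 67.0 to 83.0% in control fat, and 93.0% in muscle of the hyperinsulinemic monkey and 90.1 to 91.9% in control muscle. Of the PI3K regulatory subunits, PIK3R1 led in fat, with 61.4% in the hyperinsulinemic monkey and 48.0 to 82.6% in controls. PIK3R2 held 32.3% in fat of the hyperinsulinemic monkey and 14.2 to 47.3% in control fat. In fat of control rhesus_940129 PIK3R1 and PIK3R2 were nearly equal, at 12.2 and 12.1 RPKM. In muscle PIK3R2 (p85β) led, with 73.7% in the hyperinsulinemic monkey and 70.6 to 85.4% in controls, and PIK3R1 held 15.7% in the hyperinsulinemic monkey and 7.84 to 16.0% in controls.

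The wider pathway was read from lists of 78 other genes, of which 64 were in the files. In muscle 39 passed the filter and 0 were called by edgeR, with 26 estimates lower in the hyperinsulinemic monkey and a median log2 difference of -0.14, against -0.03 over all genes. In fat 59 passed and 0 were called, with 42 lower and a median of -0.22, against -0.06 over all genes. Unadjusted p was under 0.05 for 5 of the 39 in muscle and 2 of the 59 in fat. The median over all genes itself moved to 0.14 in muscle and 0.13 in fat with scaling to mapped totals. The share of all genes with lower estimates was not worked out. Counts of lower estimates in these lists are therefore descriptions that depend on the scaling.

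**Figure D5:**
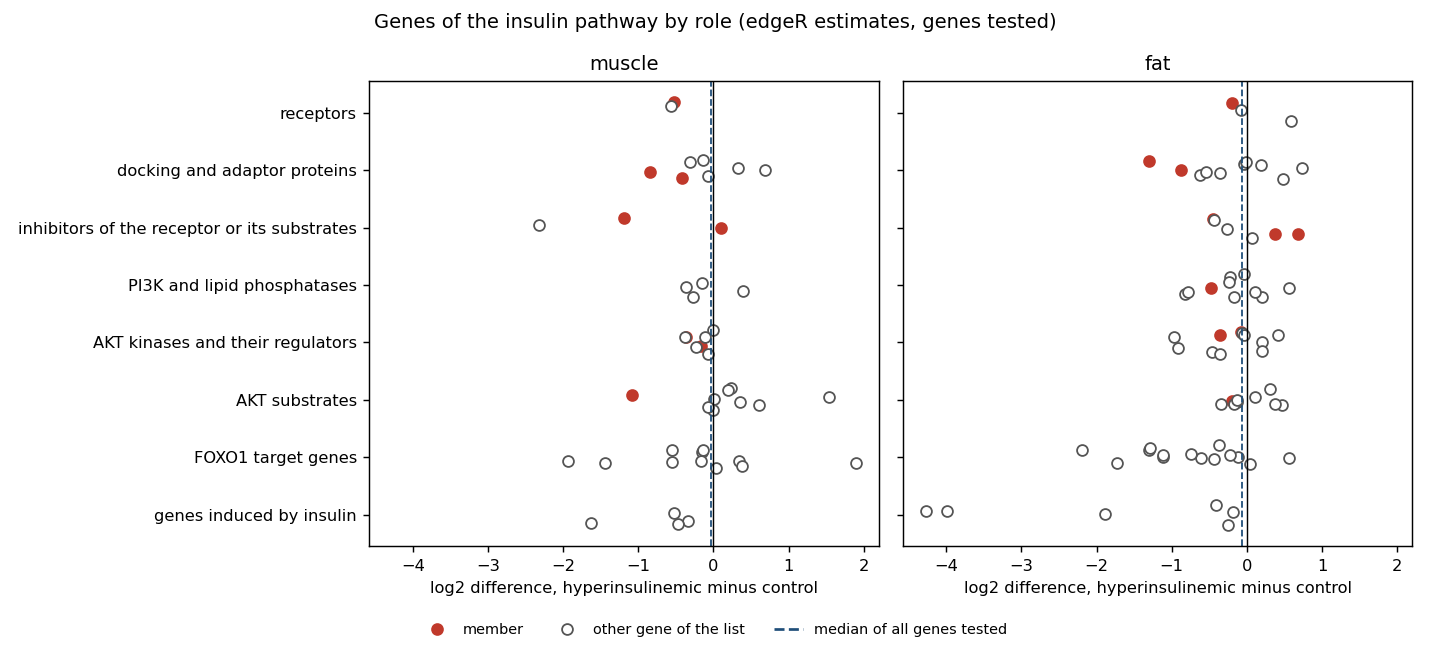
Estimated log2 difference (horizontal axis, hyperinsulinemic minus control, edgeR) of every tested gene of 8 lists ordered by role, in muscle and fat, with members in red, other genes open and the median of all genes dashed. In fat 12 of 14 FOXO1 target genes and 6 of 6 insulin-induced genes lie left of 0, and none of them was called. The share of all genes left of 0 was not worked out, so these counts are descriptions.

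Among AKT substrates in muscle, TBC1D1, a Rab GTPase-activating protein that restrains GLUT4 traffic, had 12.3 RPKM in the hyperinsulinemic monkey, against 3.72 ± 0.795 RPKM in controls (SD, n = 4). Its log2 difference was 1.54 ± 0.303, with an adjusted p of 0.342 in edgeR and 0.00709 in DESeq2, which called it. Among FOXO1 targets in muscle, SESN3, a stress sensor that restrains mTORC1, had 5.31 RPKM in the hyperinsulinemic monkey, against 1.27 ± 0.418 RPKM, with a log2 difference of 1.90 ± 0.437, an adjusted p of 0.383 in edgeR and 0.0315 in DESeq2. KLF15, another FOXO1 target and a transcription factor of fasting metabolism, had 1.75 RPKM in muscle of the hyperinsulinemic monkey, against 4.24 ± 1.07 RPKM, and a log2 difference of -1.44 ± 0.434 with edgeR adjusted p = 0.482. FOXO1 targets thus lay on both sides in muscle, 7 of 11 lower, and a link to the FOXO1 level of that library was not tested. The adaptor GRB7, a relative of GRB10, had 0.331 RPKM in the hyperinsulinemic monkey, against 1.46 ± 0.779 RPKM in control muscle, with a log2 difference of -2.32 ± 0.945 (edgeR adjusted p = 0.517).

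Among insulin-induced genes in muscle, SREBF1, the gene of the lipogenic factor SREBP-1, had 3.02 RPKM in the hyperinsulinemic monkey, against 8.33 ± 5.52 RPKM in controls, with a log2 difference of -1.63 ± 0.715 (edgeR adjusted p = 0.551). HK2, the hexokinase that traps glucose in muscle, was below the filter and was singled out after its values were seen. It had 0.162 RPKM (29 reads) in the hyperinsulinemic monkey, against 0.819 to 1.26 RPKM (169 to 257 reads) in control muscle. In the edgeR fit without a filter its log2 difference was -2.81 ± 0.626, with adjusted p = 0.138. In fat HK2 had 3.12 RPKM in the hyperinsulinemic monkey, against 2.83 to 3.79 RPKM in controls, within their range.

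In fat the lowest p among FOXO1 targets was that of CCNG2, a cyclin of arrested cells, with 8.99 RPKM in the hyperinsulinemic monkey, against 25.9 ± 6.52 RPKM in controls. Its log2 difference was -1.72 ± 0.519, with edgeR adjusted p = 0.9999. The list as a whole had a median log2 difference of -0.68 over 14 genes. FASN, the fatty acid synthase, had a log2 difference of -3.99 ± 1.64 in fat (edgeR adjusted p = 0.9999). FASN had 68.7 RPKM in the hyperinsulinemic monkey, against 57.9 to 2142 RPKM in controls, so 1 control was lower still. The insulin-induced list had a median of -1.15 over 6 genes.

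Between tissues of the controls, 33 of 60 other pathway genes were called by edgeR with TMM scaling, 20 higher and 13 lower in fat, near the 50.9% called, 29.3% higher and 21.6% lower over all genes. With mapped totals all 20 kept direction and call, but 8 of the 13 kept direction and 4 kept the call, namely SH2B2, GRB7, FBXO32 and TRIM63. Among genes of lipid signalling next to PIK3R1, the catalytic subunits PIK3CA and PIK3CB were higher in fat, by log2 differences of 2.45 ± 0.743 and 1.72 ± 0.386 with TMM. Of the phosphatases that act on the receptor beside PTPN1, PTPRF was 4.59 ± 0.510 and PTPRE 2.73 ± 0.433 higher in fat. The adaptor SH2B2 (APS) was on the muscle side by -6.13 ± 0.292, at 0.669 to 1.43 RPKM in control fat and 22.8 to 31.4 RPKM in control muscle. TRIM63 and FBXO32, ubiquitin ligases of muscle and FOXO1 targets, were -6.83 ± 0.526 and -4.18 ± 0.369, opposite to FOXO1 itself. RICTOR, a subunit of the mTORC2 complex that phosphorylates AKT, was higher in fat by 1.92 ± 0.491.

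GRB10, the member with the smallest p, was also used to search for genes with a like pattern. Over the 10 libraries of 5 animals, after each tissue mean was taken off, GGCT (gamma-glutamylcyclotransferase) had a Pearson correlation of 0.965 with GRB10, TMEM273 one of 0.958 and the unnamed ENSMMUG00000034628 one of 0.938, the highest of 7937 genes. GGCT had 1.77 RPKM in muscle of the hyperinsulinemic monkey, against 3.13, 8.05, 3.69 and 3.16 RPKM in the 4 controls. TMEM273 had 0.361 RPKM, against 1.27, 2.29, 1.27 and 1.47 RPKM in the same libraries. As for GRB10, control rhesus_940129 was the highest and the hyperinsulinemic monkey the lowest in muscle for both. Since both genes were picked for their likeness to GRB10 in these same libraries, this order is no separate observation. The libraries share animals and depth, and these correlations are descriptions.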

How the data were processed

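RNA was sequenced on a HiSeq 2000 from 10 libraries (5 animals, muscle and fat). Per the labels, the authors used poly(A) selection and a deoxy-UTP strand protocol; they mapped reads with Tophat (1.2.0 in the submitters' processing notes, another release in the study's methods) and kept uniquely mapped reads. The sources used here do not name the counting tool, build or annotation. The deposited files hold read counts per gene, which were tested, and RPKM values, which the authors made from these counts, transcript length and mapped reads. Members and lists were chosen with earlier results of these data known.

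Counts were tested with edgeR 4.0.16 (quasi-likelihood, TMM scaling, two-sided, Benjamini-Hochberg adjustment over all genes averaging 1 RPKM or more). Alternatives were DESeq2 1.42.0, limma 3.58.1 on log2(RPKM + 1) or log2(RPKM + 0.1), other scalings and filters, and each control left out. The scripts were tested on simulated data. Total mapped reads were 30669915 to 43268985 per library. Intervals of counts and the limit for 0 reads cover counting error only. Nothing says whether more than 1 library was made per tissue, so technical spread is unknown. Members were named in every comparison; from each list, called genes or up to the 2 lowest p where none was called, and 3 genes most like GRB10. Both tissues come from the same animals, so the animal was also fitted as a replicate block. Deviations of fat and muscle of 1 control correlated at -0.22 to 0.15 over 7938 genes. Results of some genes of the lists are not reported here.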

Additional observations from a re-analysis of the deposited data

Results flagged for a closer look

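PTPN1, the phosphatase of the insulin receptor, had 11.3 RPKM in fat of control rhesus_920401, far above the other 3 controls at 6.70 to 7.44 RPKM and next to the 11.9 RPKM of the hyperinsulinemic monkey. The gap took up more of the control range than Dixon's 95% critical value for 4 samples. Among the 20 groups examined (10 genes in fat and muscle), chance flags about 1 in 20. The same library held muscle RNA and had 310.5 RPKM of summed macrophage markers, the highest of the control fat libraries. The muscle RNA carried 0.0610% of the PTPN1 level there, and the part of the macrophage markers was not tested.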

How the results depend on the processing

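No member was called between the hyperinsulinemic monkey and controls under any alternative, and IRS1, IRS2 and GRB10 kept a negative estimate in both tissues under all of them. Of the values of single members, 441 changed neither sign nor call, 30 turned, 10 lost and 3 gained a call. In muscle 1 gene was called with median-of-ratios scaling, 3 with mapped totals, 88 with DESeq2, 1 with limma at pseudocount 1, 10 without a filter and 1 with robust variances, and 0 to 14 with 1 control left out (14 without rhesus_940313). In fat 11 were called by DESeq2, 33 without the fat libraries of rhesus_920401 and rhesus_940313, and 0 to 6 with 1 control left out (6 without rhesus_920401). The interaction gave 16 genes with DESeq2 and 1 with limma at pseudocount 0.1. Between tissues 4151 genes were called at a mean of at least 5 RPKM, and 3 members, against 6, with limma at pseudocount 1.

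Estimates near 0 turned. AKT2 in muscle was 0.0018 with mapped totals, and 0.010 with limma at pseudocounts 1 and 0.1. INSR in fat was 0.028 and 0.040 with limma, AKT1 in fat 0.12 with mapped totals and 0.15 and 0.15 with limma, and FOXO1 in fat 0.0030 and 0.0053 with limma. With 1 control left out, PTPN1 in muscle ran from -0.041 to 0.21, INSR in fat from -0.32 to 0.032, AKT1 in fat from -0.16 to 0.11, and the AKT2 interaction from -0.32 to 0.17. Between tissues, mapped totals and limma at pseudocounts 1 and 0.1 gave 1.10, 0.86 and 1.08 for INSR, 1.09, 0.74 and 1.01 for IRS2, 0.11, 0.076 and 0.077 for AKT1, and 0.42, 0.36 and 0.37 for AKT2. These scale to mapped reads; beyond that the cause was not tested. With the animal as a replicate block, within-tissue fits (limma) gave 2 genes in fat, AKT2 0.010 in muscle, and INSR 0.028, AKT1 0.15 and FOXO1 0.0030 in fat, and changed no member's call. Depth limits GRB14, with at most 98 reads in a library.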
